A study of Mus musculus with 6 samples.

Results

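The comparison set clone 1 of an HP1 double knockout in mouse embryonic stem (ES) cells against its control clone, and it was chosen by library label: 2 libraries of clone 1 against 2 libraries of the control, 4 of the 6 libraries of the series. Clone 1 carries the deletion of Cbx5, which codes for HP1 alpha, and of Cbx1, which codes for HP1 beta, given in the labels as "Hp1alpha and Hp1beta double knockout". The control has floxed alleles of both genes (F/F), and its genotype is labelled WT. The 2 libraries of clone 2, a second deleted clone, were used for the estimate of the spread and for the direct test of clone 2 against clone 1. All cells grew in the same serum-replacement medium with LIF, 3 µM CHIR99021 (an inhibitor of GSK3) and 0.8 µM PD184352 (an inhibitor of MEK). RNA sequencing counts were the only readout. Each group is 1 clone, so the effect of the deletion cannot be told apart from other differences between clones. Nothing in the labels says that replicate libraries are separate cultures, so the p-values measure the spread between libraries only, which may be technical.

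HP1 proteins bind histone H3 methylated at lysine 9 and are structural components of heterochromatin, the compacted part of the genome that holds repeats and many genes silent in the cell type at hand. Mammals have 3 forms, alpha, beta and gamma, and Cbx3 codes for the gamma form. In ES cells, heterochromatin of this kind is known for its part in silencing germline genes, endogenous retroviruses and genes of the 2-cell embryo.

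The libraries held 34641560 and 32327537 counted reads in the control and 27876620 and 27822664 in clone 1, and 14771 genes were tested. The ES cell markers were present: the summed level of 10 of them, Pou5f1 and Sox2 among them, lay between 4830 and 5060 CPM (read counts scaled to the size of the library) in all 4 libraries. Markers of other cell types were low. Of 6 primitive endoderm markers, 4 were under 1 CPM in all 4 libraries and Foxa2 had no read. Of 6 trophectoderm markers, 4 were under 1 CPM and Elf5 had no read. Of 10 fibroblast markers, 5 were under 1 CPM in all 4 libraries, including Col1a2, Col3a1, Dcn, Lum and Postn.

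Both targeted genes were lower in clone 1. Cbx5 (Entrez 12419, GRCm38 chr15:103191546-103239904) read 813 and 809 CPM in the control and 205 and 194 CPM in clone 1. Cbx1 (Entrez 12412, chr11:96788680-96808982) read 227 and 223 CPM in the control and 49.3 and 43.9 CPM in clone 1. The libraries of the groups lay far apart for both genes, with 24.6% of the control level left for Cbx5 and 20.7% for Cbx1. The log2 changes were -2.02 (SE 0.07) and -2.27 (SE 0.08), each with an adjusted p of 1.65e-09 in edgeR's quasi-likelihood test. Which exons were deleted is not stated in the labels, and these counts may include exons outside the deletion. The gamma form Cbx3 read 321 and 344 CPM in the control and 455 and 453 CPM in clone 1, a log2 change of 0.45 (SE 0.07, adjusted p = 7.64e-04). Cbx3 lies on chromosome 6, where genes were higher as a block, and against the median of its own chromosome the change was 0.01 (adjusted p = 0.964).

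Across the genome 2253 of 14771 genes were called at an adjusted p under 0.05 (15.3%). Of these, 1298 rose (8.79% of the genes tested) and 955 fell (6.47%). The called genes were unevenly placed. Chromosome 3 held 4.75% of the genes tested and 20% of those that rose, and chromosome 6 held 4.80% of the genes tested and 28.7% of those that rose. On chromosome 3, 281 of 701 genes were called (40.1%), of which 259 rose (36.9%) and 22 fell (3.14%). On chromosome 6, 390 of 709 were called (55%), of which 373 rose (52.6%) and 17 fell (2.4%). On the Y chromosome 5 of 10 genes rose (50%) and none fell. On the 18 remaining chromosomes 1577 of 13351 genes were called (11.8%), of which 661 rose (4.95%) and 916 fell (6.86%). Rises thus made up 57.6% of all calls and 41.9% of the calls outside chromosomes 3, 6 and Y. With every chromosome centred on its own median, 10.3% of genes were called, of which 731 rose (4.95%) and 795 fell (5.38%), and 47.9% of these calls were rises. Leaving out 1 library lowered the counts outside chromosomes 3, 6 and Y the most for clone 1 replicate 1, to 316 rises and 465 falls, and for control replicate 1, to 339 rises and 521 falls. Without control replicate 2, 572 fell. Falls outnumbered rises less in a fit without the genes of chromosomes 3, 6 and Y, which called 666 rises and 674 falls.

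The shift of chromosome 6 was the larger. Relative to the median of all genes, its genes had a median log2 change of 0.44, or 1.36 times the control, and 83.6% of them lay above 0. The libraries of clone 1 gave 0.42 and 0.40 when each was set against the mean of the control. Chromosome 3 had a median of 0.29, or 1.22 times the control, with 79.6% of its genes above 0 and 0.27 and 0.25 in the single libraries. The medians of the other 18 chromosomes ran from -0.07 on chromosome X to 0.06 on chromosome 18, while control replicate 1 minus replicate 2 gave -0.02 to 0.02 on these chromosomes. Both clone 1 libraries therefore stood apart from the control on chromosomes 3 and 6, by more than any of those 18 chromosomes. These medians are descriptions without a test, since the genes of a chromosome are not replicates and the pair of chromosomes was named from these data.

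**Figure D1:**
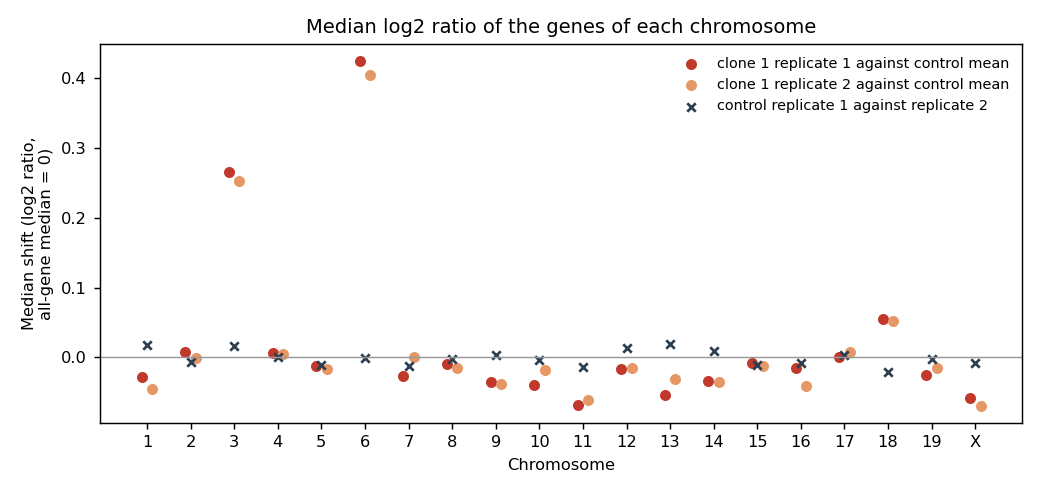
Median log2 ratio of the tested genes of each chromosome relative to the median of all genes (vertical axis) by chromosome (horizontal axis, Y left out). Circles are the clone 1 libraries against the control mean and crosses are control replicate 1 against replicate 2; chromosomes 3 and 6 are high in both clone 1 libraries, at 0.25 to 0.27 and 0.40 to 0.42.

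Along chromosome 6 the rise was general. All 15 windows of 10 Mb with at least 10 tested genes had medians above 0, from 0.23 to 0.57. Along chromosome 3, 15 of 16 windows were above 0 and 10 reached at least 0.2, with a range from -0.04 to 0.34. The lowest were the windows at 40 to 50 Mb, with 17 genes and a median of -0.04, and at 20 to 30 Mb, with 13 genes and a median of 0.02. None of the 227 windows on the 18 chromosomes other than 3, 6 and Y reached 0.2, and their medians ran from -0.95 to 0.18. The Y chromosome had 1 such window, with 10 genes and a median of 0.34.

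The shift was seen most evenly among abundant genes. The tested genes were split by mean CPM over clone 1 and control into 3 classes of equal size. In the high class (38.8 CPM or more), 240 of 242 on chromosome 6 lay above 0 with a median of 0.47, and 213 rose (88.0%). On chromosome 3, 243 of 261 lay above 0 with a median of 0.31, and 171 rose (65.5%). In the low class (5.4 CPM or less), the medians were 0.27 on chromosome 6 and 0.12 on chromosome 3. The genes of the 18 remaining chromosomes had a median near 0 in the high class (0.00) and the middle class (0.01), but -0.14 in the low class. In that low class 303 genes fell and 79 rose of 4429, while in the high class 307 fell and 312 rose of 4418. The control libraries were deeper than those of clone 1, and with every library thinned to the depth of the shallowest the low class held 265 falls and 70 rises, with a median of -0.14.

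**Figure D2:**
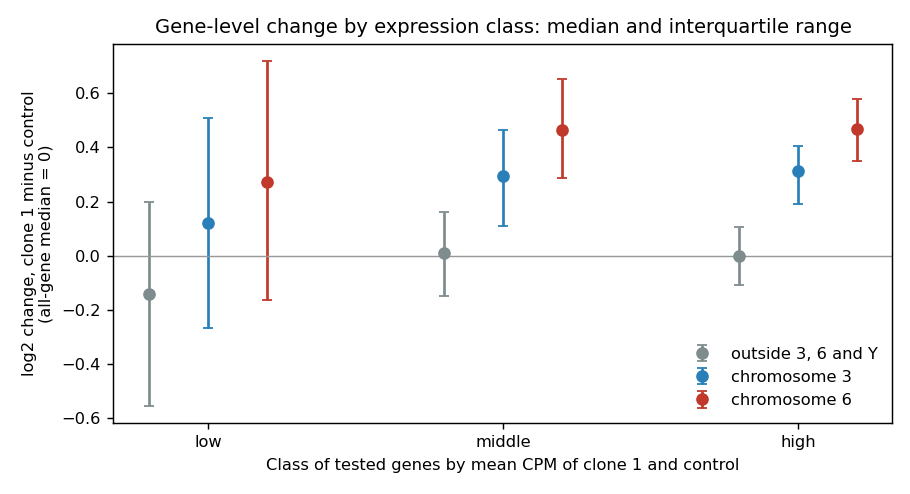
Log2 change of clone 1 against control relative to the median of all genes (vertical axis) for genes in the low, middle and high class by mean CPM (horizontal axis); points are medians over genes and bars span the interquartile range. The medians of chromosome 6 (red) and chromosome 3 (blue) lie above 0 in each class, but their bars cross 0 in the low class. The genes outside chromosomes 3, 6 and Y (grey) have a median of -0.14 in the low class and near 0 in the others.

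Outside chromosomes 3, 6 and Y, falls were larger than rises: the median log2 change was -0.63 over the genes that fell and 0.44 over those that rose, and 248 fell and 74 rose by at least 2-fold. All 916 falls, and 660 of the 661 rises, had no overlap between the libraries of clone 1 and control. With 2 libraries per group, lack of overlap nearly follows from passing the test, so these counts add no support to the calls. Among the 12 largest rises, Selenoi, the ethanolamine phosphotransferase of phosphatidylethanolamine synthesis, read 9.55 and 8.64 CPM in the control and 48.1 and 48.3 CPM in clone 1. Its log2 change was 2.40 (SE 0.10, adjusted p = 1.00e-08), and the clone 1 libraries were nearly equal. Chd3, an ATP-dependent chromatin remodeller of the NuRD complex, read 16.9 and 17.8 CPM in the control and 53.8 and 53.6 CPM in clone 1, a log2 change of 1.63 (SE 0.09, adjusted p = 1.21e-07). Both genes had little spread within the groups, and the naming rule required that the groups not overlap.

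Nrp2 and Sema5a were also among the 12 largest rises. Nrp2, a co-receptor for semaphorins and VEGF, read 16.7 and 18.6 CPM in the control and 67.8 and 69.6 CPM in clone 1 (log2 1.96, SE 0.09, adjusted p = 2.22e-08). Sema5a, a membrane-bound semaphorin, read 10.4 and 10.9 CPM in the control and 37.1 and 30.8 CPM in clone 1 (log2 1.67, SE 0.12, adjusted p = 1.78e-06). The list of semaphorins, plexins and neuropilins did not move as a whole. Of its 28 tested members 3 rose (10.7%) and 2 fell (7.14%), and its median was -0.02, beside -0.01 for all genes. With any of the 4 libraries left out, 1 fell. The fallen members were Plxnc1 (log2 -1.25) and Plxna2 (log2 -0.75), receptors of the plexin family that were named after their values were seen.

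Several other rises started from low levels. Kctd12b read 0.524 and 0.712 CPM in the control and 3.95 and 4.96 CPM in clone 1, and with a log2 change of 2.84 (SE 0.30) it was the largest named rise outside chromosomes 3, 6 and Y. Dcdc2a, which codes for a microtubule-binding doublecortin protein, went from 2.13 and 2.01 CPM to 11.2 and 12.7 CPM (log2 2.52). Col6a3, a chain of collagen VI, went from 1.69 and 1.64 CPM to 10.1 and 8.84 CPM (log2 2.51). In these genes both clone 1 libraries were several times higher than both control libraries, where the naming rule required no overlap. The others were Aspa (log2 1.75), the enzyme that cleaves N-acetylaspartate, Rims1 (1.63), a scaffold protein of the presynaptic active zone, and Mmp12 (1.60), a macrophage elastase, together with Tfap2a and Gata3.

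Tfap2a and Gata3 code for transcription factors of the trophectoderm and of other lineages. Tfap2a read 1.14 and 1.30 CPM in the control and 4.67 and 3.48 CPM in clone 1 (log2 1.74, SE 0.27, adjusted p = 6.82e-04). Gata3 read 0.786 and 1.24 CPM in the control and 2.87 and 3.63 CPM in clone 1 (log2 1.68, SE 0.31, adjusted p = 0.00244). The groups did not overlap for either gene, which the naming rule required. Of 16 tested trophectoderm genes 4 rose (25%) and 3 fell (18.8%), with a median of -0.07. The other rises were Tfap2c (log2 0.41) and Eomes (0.48, adjusted p = 0.0318), and the falls were Peg10 (-0.45) and the keratin genes Krt8 (-0.86) and Krt18 (-0.74). The call of Eomes ended without control replicate 1 and without either clone 1 library. Without control replicate 1, or without clone 1 replicate 1, 2 members rose. The falls were 1 without control replicate 2 or clone 1 replicate 1, and 2 in the other cases. The summed level of the 6 trophectoderm markers was 8.62 and 10.4 CPM in the control and 14.5 and 14.9 CPM in clone 1, with Eomes taking most of it, and Cdx2 stayed between 0.186 and 0.575 CPM in all 4 libraries.

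**Figure D3:**
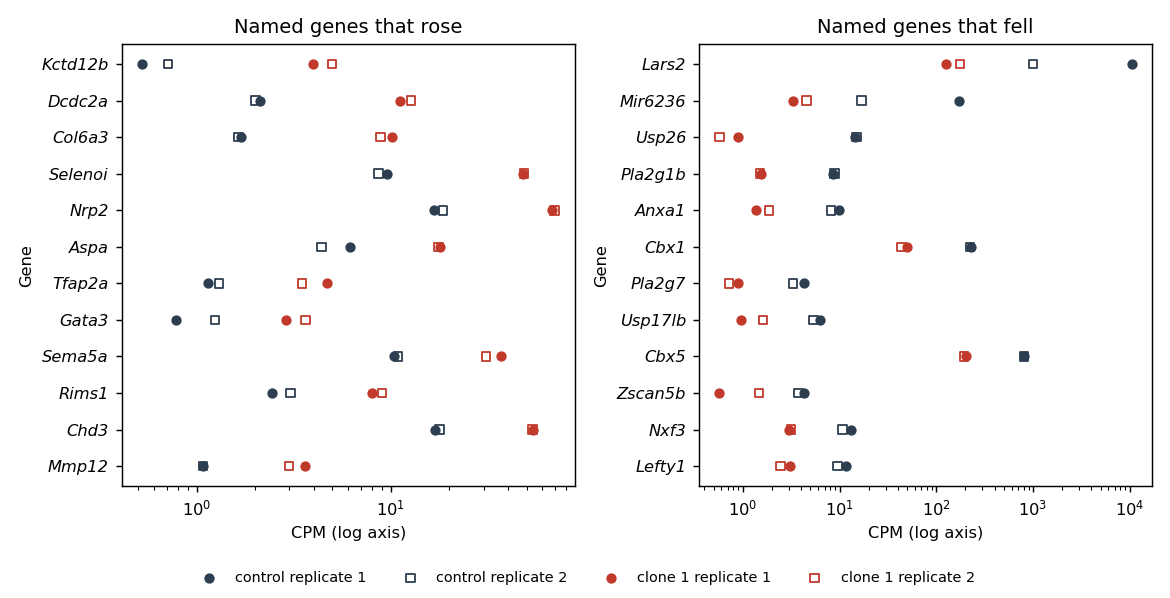
CPM on a log axis (horizontal) of the 12 largest rises and the 12 largest falls outside chromosomes 3, 6 and Y (vertical), chosen by the naming rule; dark symbols are the control libraries and red symbols the clone 1 libraries. The groups do not overlap in any row, which the rule required, and Lars2 and Mir6236 show the widest gap between the control libraries, at 10500 and 997 CPM for Lars2.

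The 12 largest falls included the targeted genes and 2 genes whose control libraries disagreed. Lars2, the mitochondrial leucyl-tRNA synthetase, read 10500 and 997 CPM in the control and 125 and 176 CPM in clone 1, and Mir6236 read 173 and 16.8 CPM against 3.27 and 4.56 CPM. Both calls ended without control replicate 1, and that of Mir6236 also ended without clone 1 replicate 1. In clone 2 the levels of Lars2 were 180 and 2440 CPM, so that library differences of this size were present within 2 of the 3 groups. Control replicate 1 and clone 2 replicate 2 also had the largest shares of reads on IDs not matched to RefSeq, 1.62% and 0.744%. The other libraries held 0.389 to 0.484%. Whether a trait of these libraries, rather than expression, set the levels of Lars2 and Mir6236 was not tested.

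Usp26, an X-linked deubiquitinase gene, read 14.5 and 14.9 CPM in the control and 0.897 and 0.575 CPM in clone 1, 5.01% of the control level (log2 -4.31, SE 0.21, adjusted p = 6.95e-08). Of the named falls that held without each library in turn it was the largest. The secreted phospholipase gene Pla2g1b read 8.56 and 8.86 CPM in the control and 1.54 and 1.51 CPM in clone 1 (log2 -2.51, SE 0.19, adjusted p = 2.54e-06). Pla2g7, which codes for platelet-activating factor acetylhydrolase, fell from 4.25 and 3.31 CPM to 0.897 and 0.718 CPM (log2 -2.22). Anxa1, a calcium-dependent phospholipid-binding annexin, fell from 9.87 and 8.21 CPM to 1.36 and 1.87 CPM (log2 -2.48). In each of these genes both clone 1 libraries were below both control libraries by a wide margin, where the naming rule required no overlap. Zscan5b (log2 -1.98), a zinc finger gene, and Nxf3 (log2 -1.96), of the mRNA export factor family, completed the set together with Usp17lb and Lefty1, described with their groups.

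The largest group of falls was that of the 2-cell-like genes, which are active in the 2-cell embryo and in a rare fraction of ES cells. Of 29 tested members 18 fell (62.1%) and 1 rose (3.45%), and the median log2 change was -1.21, beside -0.01 for all genes. Zscan4c, a zinc finger gene known for telomere maintenance in ES cells, read 26.1 and 24.9 CPM in the control and 11.8 and 10.2 CPM in clone 1 (log2 -1.21, SE 0.12, adjusted p = 3.73e-05). Zscan4a fell from 23.6 and 24.0 CPM to 9.84 and 10.5 CPM (log2 -1.23), and the deubiquitinase gene Usp17lb from 6.35 and 5.36 CPM to 0.969 and 1.62 CPM (log2 -2.18). The 1 member that rose, Calcoco2 (log2 0.28), codes for an autophagy receptor. With 1 control or clone 1 library left out, the list median lay between -1.25 and -1.18. The copies within the Zscan4, Usp17l and Tcstv families are near-identical, and how the authors counted reads shared by copies is not stated, so the values of single copies are uncertain. Fewer cells in the 2-cell-like state and less RNA per cell cannot be told apart in bulk RNA.

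The windows before the start sites of 4 Zscan4 copies that fell are shown because they share a pattern. Each holds the letters TGATT, any 2 bases and ATCA, of the kind bound by the 2-cell embryo factor Dux, on the strand opposite to the one printed, and the capitals mark the match. The sequences are from RefSeq on GRCm38.p6, 5′ to 3′ on the strand of the gene.
Zscan4b, chr7:10905107-10905166, minus strand: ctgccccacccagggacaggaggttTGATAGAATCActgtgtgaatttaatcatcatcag
Zscan4c, chr7:11005606-11005665, plus strand: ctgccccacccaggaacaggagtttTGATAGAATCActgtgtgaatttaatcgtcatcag
Zscan4d, chr7:11166239-11166298, minus strand: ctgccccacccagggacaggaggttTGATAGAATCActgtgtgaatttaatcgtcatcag
Zscan4f, chr7:11397799-11397858, plus strand: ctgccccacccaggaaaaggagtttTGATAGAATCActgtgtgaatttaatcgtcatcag
The search covered both strands of promoter windows of 300 bases, from 250 before to 50 after the start. The counts are of genes with at least 1 window, and a gene counted where any of its windows matched. The pattern was found for 4 of the 12 genes of the 2-cell-like list that fell and had a window. It was found for 16 of 10437 tested genes (0.153%) with a window outside chromosomes 3, 6 and Y. The 4 windows are near copies of each other and are not independent. A CpG-rich window (at least 50% G and C with an observed to expected CpG ratio of 0.6 or more) was found for 69.2% of those 10437 genes. The share was 42.2% of the genes that fell by at least 2-fold and 46.7% of those that rose by at least 2-fold. Of the 2-cell-like list it was found for 0 of 18 genes. The letters TATAAA were found for 7 of the same 12 genes (58.3%), for 21.1% of genes that fell by at least 2-fold and for 9.12% of the 10437. CCAAT was in 9 of the 12 (75%) and in 43.5% of the 10437. Of the 18 genes of the whole 2-cell-like list with a window, 4 (22.2%) held the TGATT pattern, 7 (38.9%) TATAAA and 12 (66.7%) CCAAT. Copies of a family are among the 12 genes, so these counts too are not independent. A match describes the letters of a window and shows no binding.

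A related group, the Pramel, Obox and Oosp families expressed in oocytes and early embryos, fell with them. Of 20 tested members 16 fell (80%) and none rose, with a median log2 change of -1.01; edgeR at an unadjusted p under 0.05, DESeq2 and limma-voom also gave 0 rises. The filter on low counts was passed by 20 of 46 members listed. Pramel7, a gene of the inner cell mass that supports the naive state of ES cells, read 68.9 and 64.2 CPM in the control and 37.0 and 38.6 CPM in clone 1 (log2 -0.82, SE 0.08, adjusted p = 3.60e-05). Pramel13 fell from 9.93 and 9.42 CPM to 3.16 and 3.16 CPM (log2 -1.61), a drop to 32.7% of the control in both libraries, and Pramel19 had a log2 change of -1.30. The number of falls depended on the libraries: 10 fell with control replicate 2 left out and 9 with clone 1 replicate 2 left out. These genes too have close copies.

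Some of the genes that fell lay beside each other. Outside chromosomes 3, 6 and Y, 41 runs of at least 3 neighbouring tested genes were called in the same direction, 27 of falls and 14 of rises, a description made after the data were seen. The longest run, of 7 genes, reached from Gm8300 to Gm5039 on chromosome 12 (GRCm38 chr12:87514316-88321762) and fell. Runs of 6 falls were the Tcstv1 cluster on chromosome 13 (chr13:119893387-120308843) and Pramel12 to Pramel24 on chromosome 4 (chr4:143412155-143729158), and 5 Zscan4 genes made a run on chromosome 7 (chr7:10794241-11402318). The window from 70 to 80 Mb of chromosome 4 had the lowest median of the genome, -0.95 over 16 genes with a median level of 1.63 CPM, and 8 of its genes fell, including the run of 5 from Gm38423 to Gm428. Many of the runs named so far are made of near-identical copies, and the part of shared reads in them was not tested. Runs whose members are not copies went both ways. Rnf14, Gnpda1, Ndfip1 and Spry4 on chromosome 18 rose. Runs of 5 falls reached from Aven to Actc1 on chromosome 2 and from Wdr95 to Brca2 on chromosome 5. Others of 5 falls were Palld to Cpe on chromosome 8 and Pcolce2 to Xrn1 on chromosome 9.

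Germline genes fell as well, and none rose in edgeR's test, also at an unadjusted p under 0.05, in DESeq2 or in limma-voom. Of 47 tested genes of meiosis and the germline 17 fell (36.2%), with a median of -0.37. On chromosomes 3 and 6, where most genes shifted up, 6 of its 10 tested members fell. Stra8, the gene of meiotic entry on chromosome 6, read 21.9 and 19.4 CPM in the control and 5.71 and 5.35 CPM in clone 1 (log2 -1.90, SE 0.14, adjusted p = 2.49e-06). Sycp1, a component of the synaptonemal complex on chromosome 3, fell from 23.7 and 24.8 CPM to 7.21 and 9.27 CPM (log2 -1.56). Tex15, required for meiosis and transposon silencing in male germ cells, fell from 115 and 110 CPM to 61.1 and 59.7 CPM (log2 -0.90). In each gene both clone 1 libraries lay far below both control libraries, and for Stra8 and Sycp1 the naming rule required no overlap. Leaving out 1 library left 11 to 14 falls, with the lowest count without clone 1 replicate 1.

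The E-box letters CACGTG read the same on both strands and are bound by basic helix-loop-helix factors. They were found for 8 of the 15 germline genes (53.3%) that fell and had a promoter window. In the whole germline list they were found for 16 of 41 genes (39.0%), and outside chromosomes 3, 6 and Y for 1214 of the 10437 genes (11.6%). The letters TTCCCGCC, of the kind bound by E2F factors, were found for 4 of the same 15 genes (26.7%), for 10 of 41 (24.4%) and for 4.62% of the 10437. Stretches of 60 bases before the start are printed to show the E-box in its context, with its letters in capitals, from RefSeq on GRCm38.p6 and 5′ to 3′ on the strand of the gene.
Sycp1, chr3:102936162-102936221, minus strand: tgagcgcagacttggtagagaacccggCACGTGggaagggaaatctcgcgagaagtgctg
Taf7l, chrX:134476507-134476566, minus strand: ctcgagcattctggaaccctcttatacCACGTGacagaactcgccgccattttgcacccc
Stk31, chr6:49395457-49395516, plus strand: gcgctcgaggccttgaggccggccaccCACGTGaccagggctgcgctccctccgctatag
Mael, chr1:166238935-166238994, minus strand: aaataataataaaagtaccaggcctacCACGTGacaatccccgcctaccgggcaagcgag
These 4 genes were picked after their values were seen. Taf7l, a germ cell paralogue of a TFIID subunit, read 5.36 and 7.59 CPM in the control and 2.15 and 1.65 CPM in clone 1 (log2 -1.76, SE 0.23, adjusted p = 2.15e-04). Mael, a gene of the piRNA pathway, read 6.40 and 4.74 CPM against 2.80 and 3.41 CPM (log2 -0.84, adjusted p = 0.0138), and its call ended when either control replicate 1 or clone 1 replicate 1 was left out. Stk31 had a log2 change of -0.59. The longer letters TCACGTGA, which contain the E-box, were found for 0 of these 41 genes and for 2.04% of the 10437. Among the 15 germline genes that fell and had a window, CCAAT was found for 8 (53.3%), beside 48.8% of the whole list and 43.5% of the 10437. TATAAA was found for 3 of the 15 (20%), beside 9.76% of the whole list and 9.12% of the 10437.

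The feedback inhibitors of Nodal signalling fell. Nodal, a ligand of the TGF-beta family, induces its own inhibitors Lefty1 and Lefty2. Lefty2 read 199 and 188 CPM in the control and 59.5 and 55.9 CPM in clone 1 (log2 -1.75, SE 0.08, adjusted p = 2.22e-08), and Lefty1 read 11.7 and 9.48 CPM against 3.05 and 2.44 CPM (log2 -1.95, SE 0.20, adjusted p = 4.06e-05). For both inhibitors the libraries of the groups lay far apart, and for Lefty1 the naming rule required no overlap. The ligand gene Nodal itself read 34.2 and 31.1 CPM in the control and 24.4 and 27.9 CPM in clone 1 (log2 -0.32, adjusted p = 0.0422), a call that ended in the fit of the 4 libraries alone and without control replicate 1 or clone 1 replicate 1. Bmp4, a ligand of the BMP branch, rose from 18.2 and 18.4 CPM to 38.7 and 42.4 CPM (log2 1.15, SE 0.09, adjusted p = 6.30e-06). Of 36 tested genes of the Nodal, BMP and TGF-beta pathway 9 fell (25%) and 3 rose (8.33%), with a median of -0.14. Without clone 1 replicate 1, 5 fell, and without control replicate 1, 6 fell.

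Genes of ES cell identity showed no common direction. Of 28 tested members 4 rose (14.3%) and 5 fell (17.9%), with a median of 0.00. Pou5f1 read 615 and 668 CPM in the control and 668 and 651 CPM in clone 1, with overlapping libraries and a log2 change of 0.04 (adjusted p = 0.76). Nr5a2, an orphan nuclear receptor of the naive state, rose from 180 and 186 CPM to 278 and 270 CPM (log2 0.58, SE 0.06, adjusted p = 7.18e-05). Dppa3, a maternal and germ cell gene on chromosome 6, fell from 6.20 and 5.27 CPM to 3.23 and 2.51 CPM (log2 -1.0, adjusted p = 0.0035). Without clone 1 replicate 1 the list held 2 rises and 1 fall, and without control replicate 1 it held 2 rises and 3 falls. Without control replicate 2 it held 2 falls. Of 17 tested genes of the formative and primed states 1 rose (5.88%) and 2 fell (11.8%), with a median of -0.15, and 1 fell with any of the 4 libraries left out. The rise, Zic2 (log2 0.39, adjusted p = 0.0104), ended without control replicate 1 or clone 1 replicate 1. The falls were Cdh2 (log2 -0.93, adjusted p = 0.0306), which codes for N-cadherin, and Dnmt3a. The call of Cdh2 ended with any of the 4 libraries left out. Dnmt3a, a de novo DNA methyltransferase, fell from 112 and 112 CPM to 82.2 and 86.7 CPM (log2 -0.41, SE 0.07, adjusted p = 0.00115).

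Collagen and matrix genes went both ways. Of 43 tested collagen and matrix genes 8 fell (18.6%) and 4 rose (9.30%), with a median of -0.28. Lamb1, the laminin beta chain, fell from 44.0 and 41.0 CPM to 16.8 and 15.4 CPM (log2 -1.40, SE 0.10, adjusted p = 1.49e-06), and Timp3, an inhibitor of metalloproteases, from 7.16 and 8.92 CPM to 4.56 and 4.27 CPM (log2 -0.86). Falls numbered 3 without control replicate 1, 4 without clone 1 replicate 1 and 5 without clone 1 replicate 2. Of the 12 tested genes of the fibroblast list 6 fell (50%) and 3 rose (25%), with a median of -0.60; without control replicate 2, or without either clone 1 library, 3 fell. Acta2, smooth muscle actin, fell from 5.12 and 6.91 CPM to 2.19 and 2.30 CPM (log2 -1.42, SE 0.22, adjusted p = 6.87e-04), while Vim, an intermediate filament gene that ES cells also express, rose from 456 and 494 CPM to 683 and 614 CPM (log2 0.45). The summed level of the 10 fibroblast markers was 29.8 and 37.0 CPM in the control and 19.7 and 22 CPM in clone 1, most of it Tagln, with Col1a1 between 1.28 and 1.58 CPM in all 4 libraries. Its part in these falls was not tested.

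Lysosome and autophagy genes were called mostly in the upward direction. Of 30 tested members 9 rose (30.0%) and 1 fell (3.33%), with a median of 0.13, and 7 of the rises lay outside chromosomes 3 and 6. Ctsl, the protease cathepsin L, rose from 174 and 166 CPM to 274 and 234 CPM (log2 0.58, SE 0.08, adjusted p = 2.83e-04), and Ulk1, the kinase that starts autophagy, from 87.8 and 102 CPM to 140 and 135 CPM (log2 0.54). Without clone 1 replicate 1, 5 rose. Of 22 tested p53 targets 6 rose (27.3%) and 1 fell (4.55%), with a median of 0.13. Pmaip1, a pro-apoptotic BH3-only gene, rose from 208 and 207 CPM to 326 and 309 CPM (log2 0.61, SE 0.07, adjusted p = 5.77e-05). The p53 rises numbered 3 without control replicate 1, control replicate 2 or clone 1 replicate 1. Of 29 tested genes of cholesterol and fatty acid synthesis 6 fell (20.7%) and 1 rose (3.45%), with a median of -0.13. Hmgcs1, which makes HMG-CoA, fell from 457 and 406 CPM to 316 and 314 CPM (log2 -0.45, SE 0.07, adjusted p = 8.07e-04).

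Neural genes and imprinted genes were mixed. Of 14 tested neuroectoderm genes 4 rose (28.6%) and 1 fell (7.14%), with a median of 0.03. Nefm, a neurofilament gene, rose from 69.6 and 76.9 CPM to 134 and 133 CPM (log2 0.87, SE 0.07, adjusted p = 7.82e-06). Of 54 tested imprinted genes 6 rose (11.1%) and 8 fell (14.8%), with a median of -0.12, and 5 fell without clone 1 replicate 1. Atp10a, a phospholipid flippase gene, fell from 5.41 and 5.33 CPM to 2.12 and 1.54 CPM (log2 -1.55, SE 0.22, adjusted p = 4.37e-04). Gnas, which codes for a stimulatory G protein subunit, fell from 84.2 and 81.3 CPM to 54.8 and 55.6 CPM (log2 -0.59), and Impact, a regulator of translation under amino acid shortage, rose from 279 and 275 CPM to 370 and 377 CPM (log2 0.43).

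Genes of chromatin silencing showed no common direction. Of 48 tested genes of H3K9 methylation and heterochromatin 4 rose (8.33%) and 3 fell (6.25%), shares close to those of all genes, and 3 of the 4 rises lay on chromosomes 3 and 6. Kdm3a, an H3K9 demethylase, and Smarcad1, a remodeller, lie on chromosome 6 and had log2 changes of 0.59 each, but 0.15 and 0.14 against their own chromosome, neither called. Lbr, an inner nuclear membrane protein that binds HP1, fell from 220 and 219 CPM to 159 and 169 CPM (log2 -0.42, SE 0.07, adjusted p = 7.78e-04). Of 39 tested Polycomb genes 6 rose (15.4%) and 4 fell (10.3%), and 2 fell without control replicate 2 or clone 1 replicate 1. Of the 33 outside chromosomes 3 and 6, 3 rose (Epop, Phc2 and Bcor, with log2 changes of 0.42, 0.62 and 0.31) and 4 fell, beside 11.8% of genes called in either direction outside chromosomes 3, 6 and Y. The falls were Suz12, Yaf2 (log2 -0.80), Phf19 (-1.04) and Pcgf5 (-0.59). Aebp2 and Ezh2, both on chromosome 6, rose (log2 0.62 and 0.49), though neither was called against its own chromosome, and Suz12, on chromosome 11, fell from 396 and 351 CPM to 276 and 270 CPM (log2 -0.45). Of 368 tested Zfp genes 9 rose (2.45%) and 12 fell (3.26%), beside 8.79% and 6.47% among all genes. The Zfp counts were 5 rises and 4 falls without clone 1 replicate 1, and 6 falls without control replicate 1. None of 25 clustered protocadherins was called. At an unadjusted p under 0.05 in edgeR's test, 2 protocadherins were higher and 1 was lower, and DESeq2 and limma-voom called 0.

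Other list counts also had most of their rises on the shifted chromosomes. Of 60 tested replication-dependent histone genes 9 rose (15%) and none fell (1 at an unadjusted p under 0.05 in edgeR's test, 0 in DESeq2 and limma-voom), and 7 of the 9 lay on chromosomes 3 and 6. H2ac20, a histone H2A gene on chromosome 3, rose from 179 and 193 CPM to 271 and 285 CPM (log2 0.58) and had a change of 0.30 against its own chromosome (adjusted p = 0.018). The histone calls moved with single libraries, to 4 rises without control replicate 2, 5 without clone 1 replicate 1, and 10 rises with 9 falls without clone 1 replicate 2. Of 31 tested glycolysis and hypoxia genes 4 rose (12.9%) and 1 fell (3.23%), and 3 of the rises lay on chromosome 6. Slc2a3, a high-affinity glucose transporter, rose from 514 and 458 CPM to 1120 and 1160 CPM (log2 1.23), and it was called against its own chromosome too (0.79, adjusted p = 4.48e-05). Gapdh, often used as a reference gene, read 714 and 749 CPM in the control and 991 and 1010 CPM in clone 1 (log2 0.45), a change of 0.01 against its own chromosome.

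**Figure D4:**
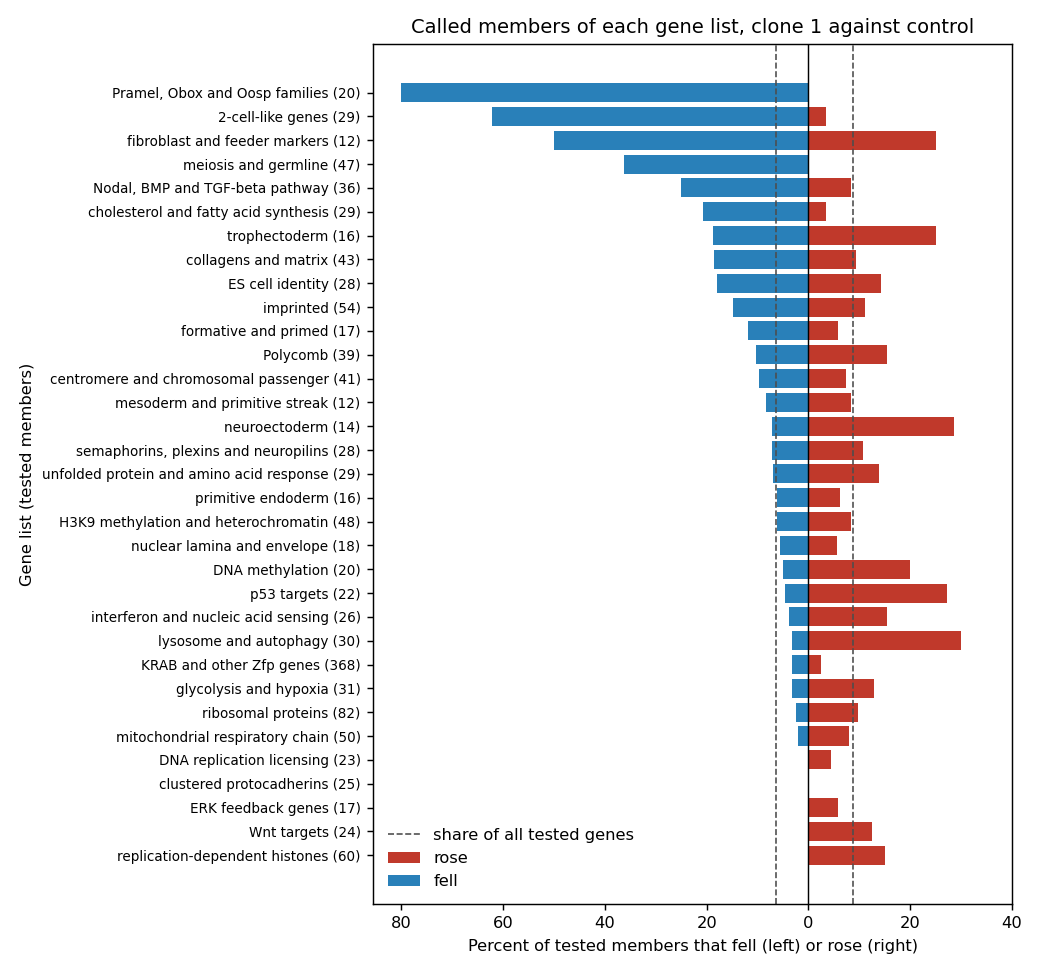
Percent of tested members that fell (bars to the left) or rose (bars to the right) in clone 1 against control for 33 gene lists, with the number of tested members in brackets; dashed lines mark the shares of all tested genes, 6.47% for falls and 8.79% for rises. The Pramel, Obox and Oosp families (80%) and the 2-cell-like genes (62.1%) have the longest bars to the left, and lysosome and autophagy genes (30.0%) the longest to the right.

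Against their own chromosome, 41 genes of chromosome 3 rose (5.85%) and 64 fell (9.13%), and 34 genes of chromosome 6 rose (4.8%) and 54 fell (7.62%), so that 105 genes (15%) and 88 genes (12.4%) were called. Of the 64 falls 42 were not called before centring, and of the 54 falls 36 were not. On chromosome 3 the largest departure was Fstl5, a follistatin-like gene, which read 0.408 and 0.217 CPM in the control and 10.6 and 9.81 CPM in clone 1. Its log2 change was 5.00 (SE 0.27, adjusted p = 1.21e-07) and 4.72 against its own chromosome, and the gene went from near 0 in both control libraries to a clear level in both clone 1 libraries. The neighbouring glutathione transferase genes Gstm1, Gstm2 and Gstm6 rose together. Gstm1 read 24.2 and 32.6 CPM in the control and 65.0 and 73.7 CPM in clone 1, and Gstm2 read 9.17 and 10.3 CPM against 28.4 and 24.6 CPM, with log2 changes against the chromosome of 1.01, 1.16 and, for Gstm6, 1.21. These paralogues are similar in sequence, so reads may be shared among them. Lrrc31 also rose (1.06 against its chromosome). Besides Sycp1, the named falls of chromosome 3 included Bglap3, a relative of osteocalcin (59.5 and 50 CPM against 20.8 and 19.8 CPM), Hrnr, which codes for the epidermal protein hornerin (log2 -1.14), and Golim4, a Golgi membrane protein gene (log2 -1.12).

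On chromosome 6 the named rises against the chromosome included C-type lectin genes of the natural killer gene complex. Clec2f read 1.63 and 0.774 CPM in the control and 6.21 and 7.15 CPM in clone 1 (log2 2.46, and 2.02 against its own chromosome, adjusted p = 5.17e-04), and its relative Clec2i read 2.15 and 2.45 CPM against 6.78 and 7.15 CPM. Between them lies BC064078, with a log2 change of 2.16. Arntl2, a paralogue of the circadian clock factor BMAL1, rose from 0.67 and 0.867 CPM to 3.91 and 4.20 CPM (log2 2.40), and C1s1, a complement protease gene, from 1.95 and 1.58 CPM to 5.53 and 6.68 CPM (log2 1.78). The named falls, besides Stra8, were Tuba3a, a testis tubulin gene (21.2 and 21.0 CPM against 8.87 and 8.01 CPM), Pdk4, a kinase that inhibits pyruvate dehydrogenase (4.89 and 4.34 CPM against 1.62 and 1.83 CPM), A2m and Gm20594. The call of Gm20594 (log2 -1.57) ended without either control library and without clone 1 replicate 1.

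Clone 2, tested directly against clone 1, differed from it at part of the genes. Between the clones 930 of 14771 genes were called (6.3%), 373 of them higher (2.53%) and 557 lower (3.77%) in clone 2. On chromosome 3, 122 of 701 genes were called (17.4%), 117 lower in clone 2 (16.7%) and 5 higher (0.713%), and the chromosome median against control was 0.08 in clone 2 and 0.29 in clone 1. On chromosome 6, 64 of 709 were called (9.03%), 24 lower (3.39%) and 40 higher (5.64%), with medians of 0.51 in clone 2 and 0.44 in clone 1. Outside chromosomes 3, 6 and Y, 744 genes were called (5.57%), 328 higher (2.46%) and 416 lower (3.12%) in clone 2. There, 151 of the 661 genes that rose in clone 1 differed between the clones, and in 140 of these clone 2 was nearer the control or past it. Of the 916 that fell, 169 differed, 143 of them with clone 2 nearer the control or past it. Because genes were taken here for their change in clone 1, a direction back toward the control is favoured by that choice.

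Genes with larger changes in clone 1 could be named. Fstl5 read 1.41 and 1.65 CPM in clone 2, below clone 1 by 2.74 on the log2 scale (SE 0.22, adjusted p = 3.06e-05). Usp26 read 2.41 and 2.77 CPM in clone 2, above clone 1 by 1.81 (SE 0.25, adjusted p = 0.00128). Lefty2 read 108 and 97.2 CPM, above clone 1 by 0.83 (SE 0.08, adjusted p = 7.26e-05), and Nefm read 80.2 and 79.9 CPM, below clone 1 by 0.74 (adjusted p = 1.03e-04). In these genes the clone 2 libraries lay between those of the control and clone 1. Of the 22 p53 targets 14 were called lower in clone 2 than in clone 1 and none higher, beside 3.77% lower and 2.53% higher among all genes. Against control the list median was -0.23 in clone 2 and 0.13 in clone 1. In clone 2, 9 of these targets fell against control and none rose. A2m, a protease inhibitor gene on chromosome 6, went opposite ways: 7.86 and 7.93 CPM in the control, 3.30 and 3.88 CPM in clone 1 and 29.6 and 22.8 CPM in clone 2. For Cbx5 and Cbx1 the clones differed by -0.03 (SE 0.07, adjusted p = 0.847) and -0.06 (SE 0.08, adjusted p = 0.725).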

How the data were processed

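The authors aligned reads with STAR 2.5.0a to mm10 (GRCm38), per the submitters' processing notes, and deposited raw read counts per Entrez gene for 6 libraries. For the counting tool, annotation release and strand counted, nothing was given in the sources used here. A gene width column was not used as a measurement. Of 24467 IDs, 24437 were matched to RefSeq GRCm38.p6 for symbols and positions, and the 30 others held 0.389 to 1.62% of the reads of a library. Libraries held 24628872 to 34641560 counts, and replicates differed by more than sampling noise.

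Counts were fitted with edgeR 4.0.16 in R 4.3.3: TMM scaling, filterByExpr (14771 genes), 3 groups over 6 libraries, 3 residual degrees of freedom, two-sided quasi-likelihood F tests and Benjamini-Hochberg adjustment over all genes at 0.05. A gene "rose" or "fell" where it passed. CPM values are TMM-scaled. SE is an approximate standard error, the log2 change without its sign divided by the square root of the quasi-likelihood F statistic. It therefore restates the test. For changes against the chromosome, each chromosome's median log2 ratio per library entered as an offset. The members, gene lists and tests were chosen with earlier results of these data known. Named genes are the 3 HP1 genes, the 12 largest called changes per direction outside chromosomes 3, 6 and Y (mean of 2 CPM or more, no overlap of libraries), 5 per direction on chromosomes 3 and 6 with chromosomes centred, and up to 3 called members per list with the smallest adjusted p. Other genes named, among them Pou5f1, Calcoco2, Nodal and the further members of lists, were chosen after their values were seen. Part of the genes under this rule is not reported here. DESeq2 1.42.0, limma-voom (limma 3.58.1), other scaling and filters, a replicate block, the 4 libraries alone and omission of single libraries were alternatives. On simulated data for clone 1 against control with 14771 genes, 75 genes were changed by 1.5-fold, 75 by 2-fold and 50 by 4-fold. Of these, 61.3%, 86.7% and 100% were called, and 8% of all calls were false. Each gene was drawn independently around its control mean, genes of the lowest levels were left unchanged, and no chromosome was shifted. Far fewer genes were changed than were called in the real data, so these shares need not hold there.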

Additional observations from a re-analysis of the deposited data

Results flagged for a closer look

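Clone 2 differed from clone 1 in the direct edgeR test. It called 373 genes above clone 1 and 557 below it in clone 2. A2m was lower than the control in clone 1 and higher in clone 2, with a difference of 2.87 (SE 0.16, adjusted p = 8.15e-07) on the log2 scale.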

How the results depend on the processing

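Other scaling (RLE, library size alone), a filter of 1 CPM in 2 libraries, DESeq2, limma-voom and the 4 libraries alone kept each count over all genes of clone 1 against control, and each outside chromosomes 3, 6 and Y, within 1.5 times its value; limma-voom ended 1 of the 122 named calls and the others ended none. Leaving out each library in turn gave 795 to 1195 rises and 489 to 868 falls in clone 1 over all genes, 316 to 583 rises and 465 to 830 falls outside chromosomes 3, 6 and Y, and, with chromosomes centred, 269 to 624 rises and 369 to 688 falls. Between the clones it gave 104 to 377 genes higher and 149 to 542 lower in clone 2, and without a filter on low counts 644 were higher. Of the 122 named calls, 110 were ended by no left-out library and not by the 4-library fit. Centring each chromosome, chosen for these counts after the data were seen, gave 731 rises over all genes. It turned the changes of Hk2 (-0.0901), Mthfd2 (-0.0071) and Ndufa9 (-0.1244), all on chromosome 6, and ended 19 other named calls, as the chromosome's own median is subtracted. Of 68 counts of list members, 19 moved by over 1.5 times with chromosomes centred, 15 without a filter, 4 with the filter of 1 CPM, 2 with the 4 libraries alone, 1 each with DESeq2 and limma-voom, and 16 to 27 when a control or clone 1 library was left out. A fit without chromosomes 3, 6 and Y and thinning to a common depth were also added after the data were seen. The shift of chromosome 3 was 0.25 as a trimmed mean, 0.26 without the filter and 0.26 to 0.30 without single libraries, and that of chromosome 6 was 0.42, 0.41 and 0.44 to 0.46. The labels number the replicates, but the numbers did not pair the libraries (correlations of deviations of 0.17, -0.38 and 0.08 between groups), and a replicate block gave 1269 rises and 960 falls, ended no named call and gave 367 and 522 genes between the clones. In simulated data with the depth and number of these libraries, but few changed genes and no shifted chromosome, 61.3% of 1.5-fold changes were recovered. Thinning gave 1256 rises and 906 falls.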
